A study of Mus musculus with 3 samples.

Results

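The 10 genes described here encode granule and antimicrobial proteins of neutrophils, or mark the cells that make them: *Camp*, *Ngp*, *Ltf*, *Lcn2* and *Cd177*, and *Mpo*, *Elane*, *Prtn3*, *Ctsg* and *Ms4a3*. They were listed by symbol, and all 10 were found among the 31053 mouse genes counted in each of 3 single-cell RNA sequencing libraries. Neutrophils fill their granules in order of maturation. Primary (azurophil) granules are made at the promyelocyte stage and hold myeloperoxidase and the serine proteases, and specific granules follow at the myelocyte stage with lactoferrin and cathelicidin. *Camp* encodes CRAMP, the single mouse cathelicidin, and while human *CAMP* is a well-known target of the vitamin D receptor, the response element in its promoter lies in a repeat found in primates and not in mice.

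Bone marrow cells of C57/BL6 mice were grown for 7 days with GM-CSF (200, without a unit in the sample labels and in units per ml in the study's methods) and then either left untreated (Co-Mac) or given the active form of vitamin D3, 1,25-dihydroxycholecalciferol, at 1 μM for 24 h (VD-Mac). The third library (hSTSG) held mouse cells from human split-thickness skin taken out 14 days after it was placed under the skin of C57BL6/J mice, with 5 mice pooled. There was 1 library per condition, so there is no replicate check and no test between conditions, and every interval below is a 95% interval that covers counting error only. Both cultures were labelled macrophages, and all 10 macrophage markers were detected in each (summing to 986 CPM in Co-Mac and 1399 in VD-Mac, where CPM scales a gene's UMIs to the summed UMIs of the cells), but so were the markers of dendritic cells (4131 and 3393) and of mature neutrophils (5320.0 and 6116, with *S100a8* alone at 3044 and 3561), and 45.8% and 58.0% of cells lay in clusters that took no name.

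After filtering, 7257 of 7866 barcodes were kept in Co-Mac (132574308 UMIs, median 15804 per cell), 8825 of 9794 in VD-Mac (116461484 UMIs, median 12089) and 2144 of 2644 in hSTSG (22646544 UMIs, median 6637.5). Co-Mac and VD-Mac shared 15 kept barcodes, Co-Mac and hSTSG 3, and VD-Mac and hSTSG 6. Clusters with neutrophil markers held 14.6% of kept cells in Co-Mac (1062), 16.2% in VD-Mac (1432) and 24.1% in hSTSG (516). These cells were shallow, with median counts of 3562, 2934.5 and 2329 UMIs.

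The level of *Camp* in the whole cultures was near equal as reported, but moved with the settings. It was 19.0 CPM in Co-Mac (2522 UMIs, interval 18.3 to 19.8) and 19.3 in VD-Mac (2242 UMIs, 18.5 to 20.1), a log2 ratio of 0.02 (-0.07 to 0.10), against 134 in hSTSG (3043 UMIs, 130 to 139). The cultures thus lay side by side while the graft library was far higher. This near equality was not stable: the ratio was above 0 in 3 of 7 alternative settings and below 0 in 4, from -0.40 without the 5 cells richest in *Camp* to 1.09 when cells with 5% or more mitochondrial UMIs were left out.

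The other genes of the late group were all higher in VD-Mac than in Co-Mac. *Lcn2*, the siderophore-binding lipocalin, stood at 136 CPM in Co-Mac, 263 in VD-Mac and 308 in hSTSG, a log2 ratio between the cultures of 0.95 (0.93 to 0.98). *Ngp*, the neutrophilic granule protein, related to the cystatins, stood at 81.7, 129 and 371 (log2 ratio 0.66, 0.62 to 0.70). *Ltf*, the iron-binding lactoferrin, stood at 12.0, 18.8 and 116 (0.65, 0.56 to 0.74). Each of the 3 was lowest in Co-Mac and highest in the graft. *Cd177*, a surface glycoprotein of neutrophils, followed the same order at 7.57, 9.74 and 23.1 (0.36, 0.24 to 0.49). These 4 genes were higher in VD-Mac in 7 of 7 alternative settings, the scalings among them. None passed 2-fold as reported, but with the 5% mitochondrial limit *Ngp* came to 1.53, *Ltf* to 1.42 and *Lcn2* to 1.37, and median scaling took *Lcn2* to 1.04.

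The early group went the other way. *Ms4a3*, a membrane protein of granulocyte-monocyte progenitors, fell furthest, from 64.1 CPM in Co-Mac to 12.8 in VD-Mac (log2 ratio -2.32, -2.40 to -2.24). *Elane*, neutrophil elastase, was at 30.0 and 12.3 (-1.29, -1.38 to -1.20). *Prtn3*, proteinase 3, was at 85.3 and 42.4 (-1.01, -1.06 to -0.96). The 3 genes were high in Co-Mac and low in VD-Mac. *Ctsg*, cathepsin G, was at 30.7 and 14.5 (-1.08), and *Mpo*, myeloperoxidase, at 7.00 and 3.24 (-1.11, -1.29 to -0.94). All 5 were lower in VD-Mac in 7 of 7 alternative settings, the scalings among them.

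**Figure D1:**
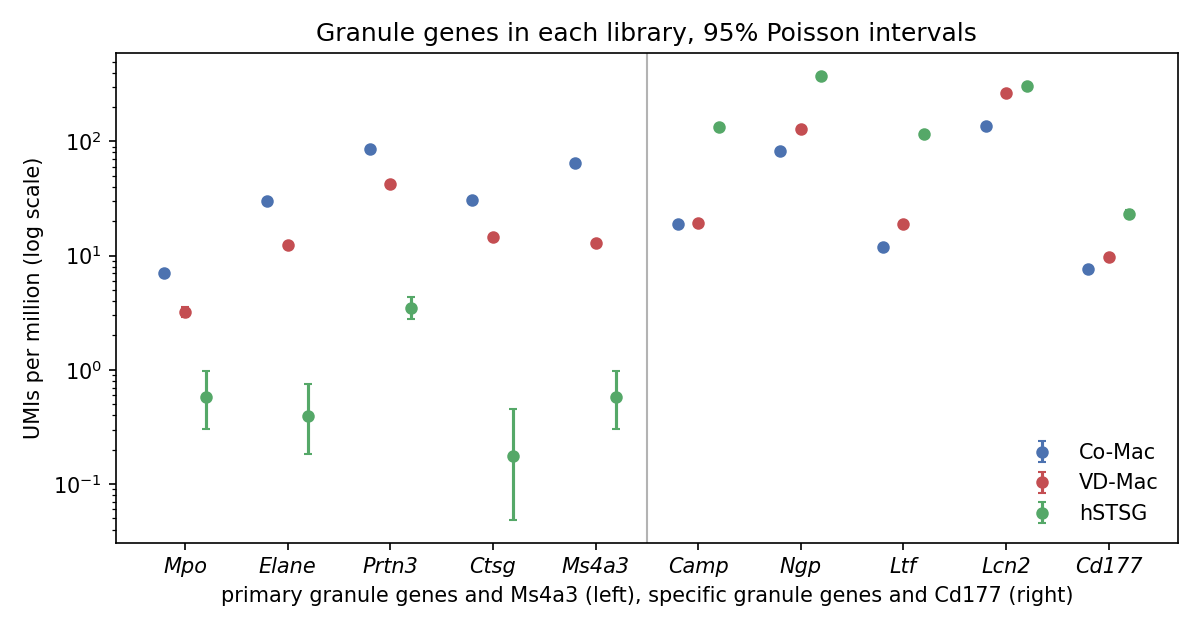
CPM (log axis) of each of the 10 genes in Co-Mac, VD-Mac and hSTSG, 1 library each, where bars are exact 95% Poisson intervals (counting error only) and are often smaller than the point. The early genes on the left fall from Co-Mac to VD-Mac and to the graft, while on the right *Camp* is level between the cultures (19.0 and 19.3) and the other 4 late genes are higher in VD-Mac.

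In the whole cultures, 6.79% of the 7732 genes with at least 10 CPM in the higher culture differed by 2-fold or more, 2.16% upward and 4.63% downward. Of the 10 genes, 8 reached that level (*Cd177* and *Mpo* did not), and 4 of these 8 were 2-fold or more lower in VD-Mac (*Elane*, *Prtn3*, *Ctsg* and *Ms4a3*) and 0 higher. Scaled by the median ratio of 6966 genes, which shifts values by 0.09, *Prtn3* came to -0.92 and *Ctsg* to -0.99, just under 2-fold.

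*Camp* was then set against the other late genes within each culture, a comparison that does not depend on scaling. There were 8.02 *Camp* UMIs per 100.0 UMIs of *Ngp*, *Ltf*, *Lcn2* and *Cd177* together in Co-Mac and 4.57 in VD-Mac, a log2 ratio of -0.81 (-0.89 to -0.73). *Camp* thus made up less of the late RNA in VD-Mac than in Co-Mac. Taken singly, *Camp* shifted by -0.94 against *Lcn2* (-1.02 to -0.85), by -0.64 against *Ngp* (-0.73 to -0.55), by -0.63 against *Ltf* (-0.76 to -0.51) and by -0.35 against *Cd177* (-0.49 to -0.20). The value against all 4 was below 0 in each of 5 alternative settings. It was -0.32 with the 5% mitochondrial limit and -1.26 without the 5 cells richest in *Camp*.

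Very few cells carried this *Camp* RNA. The richest cell held 440 of the 2522 UMIs in Co-Mac (17.4%), 559 of 2242 in VD-Mac (24.9%) and 302 of 3043 in hSTSG (9.92%), and the first 5 cells together held 55.4%, 66.5% and 44.1%. In each culture 19 cells made up 90% of the UMIs, and in hSTSG 15 did. *Camp* was thus concentrated in a handful of cells in every library. *Ngp* was spread more widely in the cultures, with 50% of its UMIs in 17 cells of Co-Mac, 30 of VD-Mac and 8 of hSTSG, where *Camp* needed 5, 3 and 6. Poisson intervals take no account of which of these rare cells were caught, so the intervals on *Camp* levels are too narrow as a guide to the cultures.

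**Figure D2:**
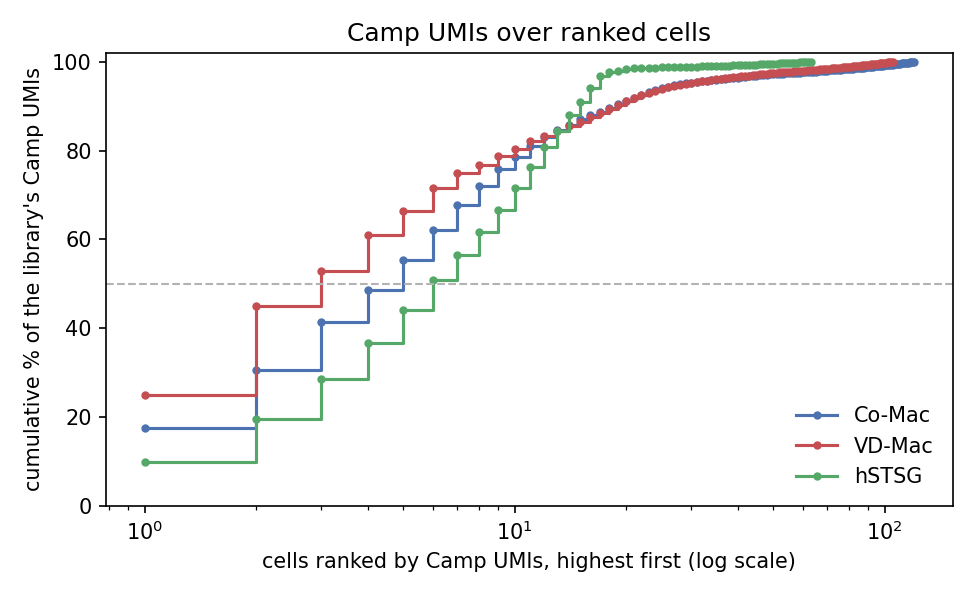
Cumulative percent of each library's *Camp* UMIs over cells ranked by their *Camp* count (log axis), with 1 line per library and 1 point per cell. The first 5 cells hold 55.4% in Co-Mac, 66.5% in VD-Mac and 44.1% in hSTSG.

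After thinning each cell to 2000 UMIs, a *Camp* UMI was seen in 0.634% of cells in Co-Mac (43 of 6785, with 472 shallower cells left out), 0.508% in VD-Mac (39 of 7676, 1149 left out) and 1.63% in hSTSG (30 of 1843, 301 left out). Without thinning the shares were 1.65%, 1.19% and 2.94%. In macrophage and dendritic cell clusters, which should lack the gene, the unthinned shares were 0.864% in Co-Mac (median 15687 UMIs per cell), 0.359% in VD-Mac (17199) and 1.92% in hSTSG (12513), at levels of 1.28, 0.221 and 1.36 CPM. The whole-library share lay above that background in each library, and the depths differ. That background was not the same in all other clusters. Clusters with fibroblast markers held 114 *Camp* UMIs in Co-Mac and 31 in VD-Mac, and those with megakaryocyte markers 25 and 1. The neutrophil clusters together held 2301 of the 2522 UMIs in Co-Mac and 2180 of the 2242 in VD-Mac.

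Cells with 5 or more *Camp* UMIs numbered 28 in Co-Mac, 30 in VD-Mac and 21 in hSTSG, a class chosen after the values were seen. They held *Camp* at 4446, 5193 and 13350 CPM in turn, *Ngp* at 9347, 14002 and 36322, and *Ltf* at 1913, 2555 and 11426. These levels follow in part from picking the cells by *Camp* itself, and their order between libraries is not a result. Of these cells, 16 of 28 in Co-Mac also carried 5 or more UMIs of the early genes (57.1%, 37.2 to 75.5%), 12 of 30 in VD-Mac (40.0%, 22.7 to 59.4%) and 0 of 21 in hSTSG (up to 16.1%). *Elane* in them was 653 in Co-Mac and 26.7 in VD-Mac. *Ctsg* was 265 in Co-Mac (143 UMIs) and had 0 UMIs in VD-Mac. No direction between the cultures is drawn from these values, since the cells were few and the intervals of the shares overlap. Most of all *Camp* UMIs lay in the same neutrophil cluster in both cultures. This was cluster 21, with 1623 of 2522 in Co-Mac and 1433 of 2242 in VD-Mac. The remainder was spread differently: cluster 28 held 447 in Co-Mac and 734 in VD-Mac, and cluster 10 held 225 and 8.

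A wider gate, 3 or more *Ngp* or *Ltf* UMIs after thinning, took 84 cells in Co-Mac, 145 in VD-Mac and 27 in hSTSG, a class also chosen after values were seen. Cells just inside or just outside its limit, at 2 or 3 such UMIs, numbered 27, 42 and 3. It held 95.2%, 97.8% and 98.4% of all *Camp* UMIs. Levels in it follow from picking cells by genes that were themselves higher in VD-Mac. Within it *Camp* was 1724 CPM in Co-Mac and 1227 in VD-Mac (log2 ratio -0.49), while *Ngp* was 7078 and 7858, *Ltf* 1036 and 1105, and *Lcn2* 6441 and 8889. No direction is drawn from these levels. *Cyp24a1*, the vitamin D 24-hydroxylase, had 0 UMIs in these cells in Co-Mac and was at 399.6 CPM in VD-Mac, beside 315 over the whole of VD-Mac and 606 in its macrophage and dendritic cell clusters. In cells with 5 or more *Camp* UMIs it was at 175 CPM, below the level of the whole library, and RNA from outside the cells was not tested for.

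Cluster 21 held 131 cells of Co-Mac (1.81%, median 23801 UMIs) and 145 of VD-Mac (1.64%, median 17166). It had between 51.7% (*Ms4a3*) and 79.8% (*Elane*) of the UMIs of each early gene in Co-Mac, but between 32.2% (*Ctsg*) and 60.5% (*Ms4a3*) in VD-Mac. Its markers were those of neutrophil precursors, and it was led by *Prtn3*, *Stfa1*, *Elane*, *BC100530* and *Camp*. Within cluster 21, 11.4% of 7349 genes differed by 2-fold or more, 5.01% upward and 6.4% downward. That balance depended on the setting. As reported 368 were higher and 470 lower, and with the mean over cells 340 and 421. It turned to 426 and 398 with median scaling, and to 503 and 354 with the 5% mitochondrial limit. Among the 10 genes 5 were 2-fold or more lower in VD-Mac and 1 higher. The fall took in every early gene: *Ms4a3* went from 1324 to 348 CPM (log2 ratio -1.93), *Ctsg* from 771 to 209 (-1.88), *Elane* from 956 to 269 (-1.83), *Mpo* from 209.8 to 64.3 (-1.70) and *Prtn3* from 2478 to 843 (-1.56). *Lcn2* was the gene that rose, from 2275 to 5008 (1.14). With cluster 20 added, which scored as precursor but was set apart by a rule chosen after values were seen (136 and 452 cells together), that rise was lost (0.0361), and *Camp* (-1.08), *Ngp* (-0.71) and *Ltf* (-0.38) were lower in VD-Mac.

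*Camp* in cluster 21 was 488 CPM in Co-Mac and 552 in VD-Mac (log2 ratio 0.18, 0.07 to 0.28), *Ngp* 1815 and 2518 (0.47), *Ltf* 175 and 297 (0.76) and *Cd177* 114 and 129 (0.17). The direction of *Camp* there should not be relied on. The clustering was chosen after others had been seen, and over the 16 alternatives tried for all 10 genes *Camp* was higher in VD-Mac in 7 and lower in 9, from -4.13 to 2.66. *Ngp* was higher in 9 of 16, *Ltf* in 10, *Lcn2* in 11 and *Cd177* in 8. The early genes were steadier: *Ms4a3* was lower in VD-Mac in 16 of 16 (by as little as -0.01), *Prtn3* and *Ctsg* in 15, *Elane* in 14, and *Mpo* in 13 of the 15 that gave it a value.

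**Figure D3:**
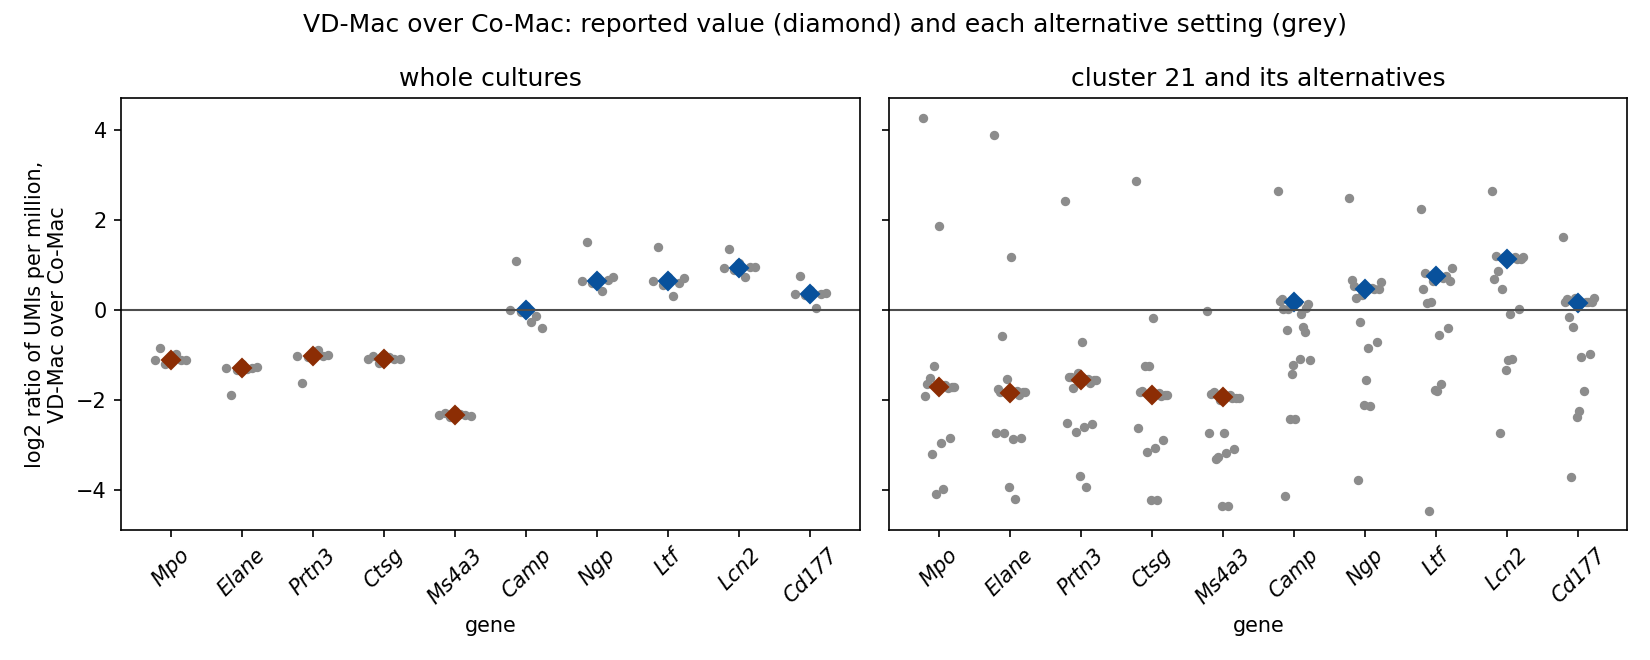
Log2 ratio of CPM, VD-Mac over Co-Mac, for each gene in the whole cultures (left) and in cluster 21 (right), where diamonds are the values reported and grey points the values under each alternative setting. On the left *Camp* lies on both sides of 0 and the other genes on 1 side each, while on the right every gene but *Ms4a3* crosses 0 under some choice of clusters.

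*Camp* against the other 4 late genes was more stable in sign in cluster 21 than its level. It fell from 11.2 to 6.94 UMIs per 100.0, a log2 ratio of -0.68 (-0.79 to -0.58). This ratio was below 0 in 17 of 18 alternatives, the exception being 0.10 with cells chosen by 300 UMIs in place of 300 genes. Its size was less stable, and lay outside the counting interval without a change of sign in 9 of the 18. Taken singly there, *Camp* shifted by -0.96 against *Lcn2*, -0.59 against *Ltf*, -0.30 against *Ngp* and 0.00 (-0.23 to 0.24) against *Cd177*. Cluster 28, with 18 cells of Co-Mac and 74 of VD-Mac, was led by *Stfa2*, *Ngp* and *Ltf*, with *Ngp* at 15783 and 10114 CPM and *Ltf* at 3287 and 1665. *Camp* was 2503 and 1169 there (-1.10, -1.27 to -0.92) and shifted by -0.58 against the other late genes. Over all neutrophil clusters together *Camp* was 280 and 290 CPM (0.05, -0.03 to 0.14), and against the other late genes -0.72. Cluster 10, of mature neutrophils (353 and 272 cells), was far from that value, with *Camp* at 65.8 CPM in Co-Mac (225 UMIs, 141 of them in 1 cell) and 3.97 in VD-Mac (8 UMIs; -4.05, -5.28 to -3.05). In these clusters 4.91% of 7575 genes differed by 2-fold or more, 1.77% upward and 3.14% downward, and of the 10 genes the 5 early ones did, all downward, by -1.72 to -2.09. In the mature neutrophil clusters alone the early genes did not fall together: *Prtn3* was higher in VD-Mac, at 6.93 and 21.7 CPM (1.65, 1.08 to 2.25), and *Elane* had 0 UMIs in Co-Mac and 16 in VD-Mac.

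Other cell types carried early RNA as well, and the make-up of the cultures differed. A cluster with monocyte markers held 564 cells in Co-Mac and 14 in VD-Mac. It had 2793 of the 8504 *Ms4a3* UMIs of Co-Mac (32.8%) and 111 of the 1492 of VD-Mac (7.44%). Its share also fell for *Prtn3* (21.2% to 10.4%) and *Elane* (16.0% to 10.97%), but rose for *Mpo* (13.9% to 28.4%) and *Ctsg* (11.5% to 21.8%). Inside that cluster all 5 early genes were higher in the few VD-Mac cells, such as *Mpo* at 9.98 and 356 CPM and *Elane* at 49.3 and 523. Basophil or mast cells, 27 and 36 in number, held 920 of the 4076 *Ctsg* UMIs in Co-Mac (22.6%) and 502 of 1688 in VD-Mac (29.7%). In macrophage clusters (434 and 1246 cells) *Prtn3* was higher in VD-Mac, at 7.53 and 37.8 CPM, as was *Elane* at 0.636 and 11.2, while *Ms4a3* was lower, at 8.80 and 4.85. In dendritic cell clusters (1071 and 148 cells) *Prtn3* had 21 UMIs in Co-Mac and 0 in VD-Mac. In cluster 21, 5 of 6 monocyte markers were detected in both cultures, summing to 2518 in Co-Mac and 901 in VD-Mac with *Ly6c2* the most abundant and *Cx3cr1* at 0, and macrophage markers (9 of 10 and 8 of 10, *Ctsk* at 0 in both) to 135 and 297. The part of these cells in the fall of the early genes was not tested.

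The stage of each neutrophil was read from its own RNA after thinning, which left 795 cells of Co-Mac (267 too shallow), 1001 of VD-Mac (431) and 357 of hSTSG (159). Early RNA (3 or more UMIs of the early genes) was carried by 76 cells in Co-Mac (9.56%, 7.61 to 11.8%) and 52 in VD-Mac (5.19%, 3.90 to 6.76%), and late RNA by 220 (27.7%) and 349 (34.9%). In macrophage and dendritic cell clusters these shares were 0.0668% and 1.15% for early RNA and 1.07% and 1.94% for late RNA. No graft neutrophil carried early RNA (0 of 357, up to 1.03%), while 90 carried late RNA (25.2%).

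Early and late RNA overlapped in part of the cells. Of the 76 early cells of Co-Mac 47 also carried late RNA (61.8%, 50.0 to 72.8%), and of the 52 of VD-Mac 40 did (76.9%, 63.2 to 87.5%). Of the late cells, 21.4% in Co-Mac (16.1 to 27.4%) and 11.5% in VD-Mac (8.32 to 15.3%) carried early RNA. With *Lcn2* left out of the late genes these were 35.8% (25.4 to 47.2%) and 8.89% (4.68 to 15.0%). Without thinning, the share of early cells with late RNA was 94.0% and 96.2%. Both the size of that share and the order of the cultures rest on *Lcn2*: without it, the shares were 38.2% in Co-Mac (27.2 to 50.0%) and 23.1% in VD-Mac (12.5 to 36.8%). Thinned to 1000 UMIs, they were 35.1% and 48.4%.

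Cells of the neutrophil clusters were also ordered by an index without any of the 10 genes, the log2 ratio of late neutrophil genes to cell cycle genes, and split into 5 bins of equal size. *Elane* was confined to the cycling end in both cultures, at 582, 22.0, 0, 0 and 0 CPM over the bins of Co-Mac and 169, 5.0, 0, 0 and 0 in VD-Mac. *Prtn3* was at 1472, 223, 15.7, 0 and 6.29 in Co-Mac and 532, 12.5, 2.5, 5.0 and 10.0 in VD-Mac. Both genes were thus highest in the first bin and at 5 or fewer UMIs per bin from the third. *Ngp* was at 1984, 667, 884, 805 and 557 in Co-Mac and 2522, 1162.5, 727.5, 935.0 and 927.5 in VD-Mac, and so ran through every bin. *Camp* was at 528, 59.7, 142, 255 and 78.6 in Co-Mac and 500.0, 205.0, 107.5, 12.5 and 52.5 in VD-Mac.

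In the first bin *Camp* was near equal in the cultures while *Lcn2* was 2421 in Co-Mac and 4535 in VD-Mac. In the second bin *Camp* was higher in VD-Mac (19 UMIs in Co-Mac and 82 in VD-Mac), and in the fourth it was lower (81 and 5). Each culture's own cells were split into bins. Late genes of the index also differed between the cultures in cluster 21, with *G0s2* lower and *Mmp8* higher in VD-Mac. Bins of the same number are thus not matched stages, and no direction is drawn from comparing them. Weighted by UMIs, the mean index in Co-Mac was between -2.50 (*Elane*) and -2.07 (*Ms4a3*) for the early genes, 0.04 for *Camp*, 0.28 for *Ngp*, 0.51 for *Lcn2*, 0.71 for *Cd177* and 0.88 for *Ltf*. In VD-Mac it was between -3.05 (*Mpo*) and -2.01 (*Ms4a3*) for the early genes, -0.74 for *Camp*, 0.18 for *Ngp*, 0.29 for *Lcn2*, 0.58 for *Ltf* and 1.00 for *Cd177*. *Camp* thus had the lowest weighted index of the late genes in both cultures, but on RNA of a few cells: by the median index of cells with a UMI, *Ngp* was lower than *Camp* (-0.77 and -0.71 in Co-Mac, -0.58 and -0.32 in VD-Mac).

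**Figure D4:**
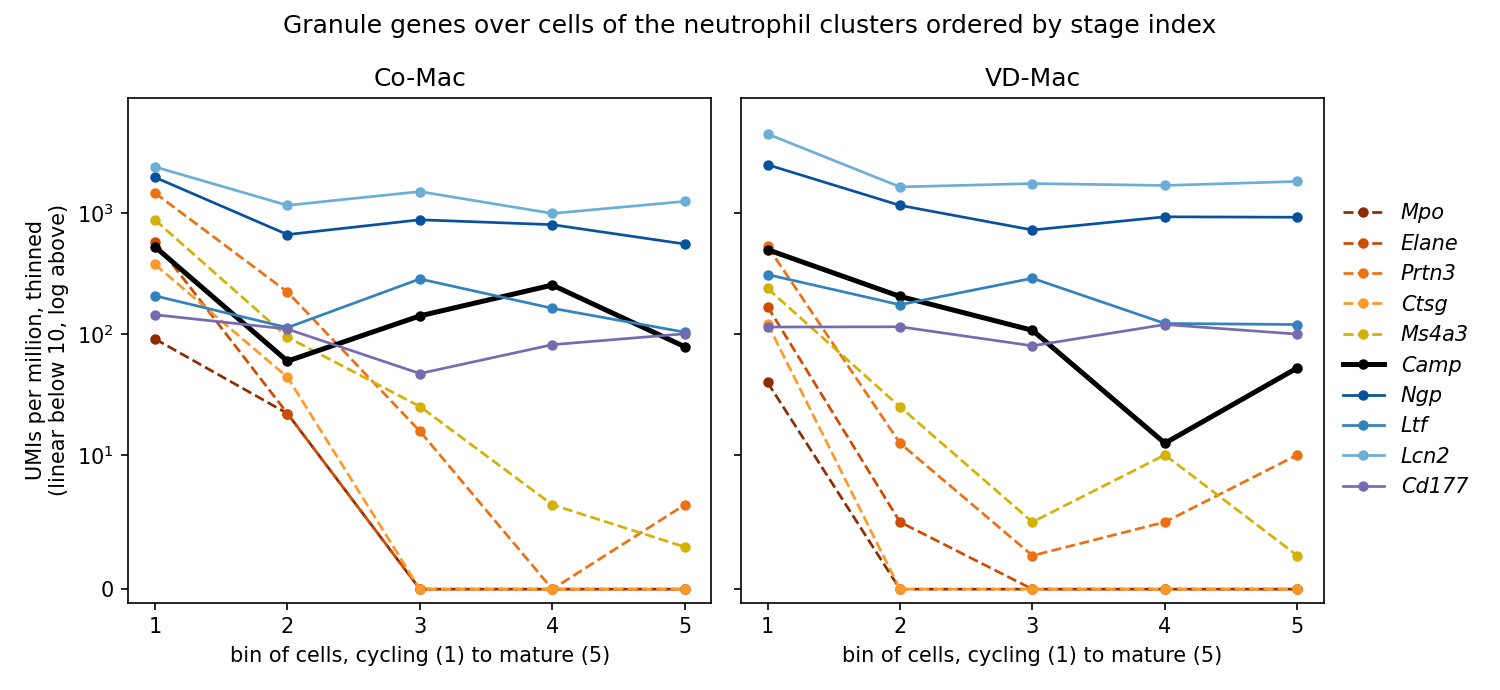
CPM of each gene after thinning (linear below 10, log above) over 5 equal bins of neutrophil-cluster cells, from cycling (1) to mature (5), in Co-Mac and VD-Mac, with early genes dashed, late genes solid and *Camp* in black. The dashed lines fall from the first bin while *Ngp* and *Lcn2* run through all bins.

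Early RNA was nearly absent from the graft. In hSTSG the early genes were at 0.574 (*Mpo*), 0.397 (*Elane*), 3.49 (*Prtn3*), 0.177 (*Ctsg*, 4 UMIs) and 0.574 (*Ms4a3*) CPM of the whole library. *Camp* was 2019 CPM in the graft neutrophil clusters, which held 98.9% of its UMIs, and *Ngp* was 5611. Over the 5 bins of the graft cells *Camp* was 819, 338, 632, 606 and 1430. It was highest in the last bin, on 23 cells with a *Camp* UMI over all bins. The other late genes were highest in that bin as well, with *Ngp* at 5092, *Ltf* at 1430, *Lcn2* at 2817 and *Cd177* at 303. Graft bins do not match those of the cultures: the median index was 2.14 in bin 1 of the graft and 2.17 in bin 4 of each culture. Of the 21 graft cells with 5 or more *Camp* UMIs (median depth 10013 UMIs), 12 had 5 or more UMIs of cell cycle genes. A peak of *Camp* in mature graft neutrophils is thus not drawn from these bins. The graft and the cultures differ in tissue, source of cells and depth, which cannot be told apart.

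Over all kept cells, the genes at 50 or more CPM whose counts (ln of 1 plus counts per 10000) ran closest to *Camp* were *Ngp*, *Lcn2*, *S100a9*, *Serpinb1a* and *S100a8* in Co-Mac (Pearson r 0.61, 0.38, 0.28, 0.23 and 0.23 over 7257 cells and 2622 genes). In VD-Mac they were *Ngp*, *BC100530*, *Lcn2*, *Pglyrp1* and *Stfa1* (0.58, 0.42, 0.34, 0.30 and 0.29 over 8825 cells and 2467 genes). In hSTSG they were *Ltf*, *Ngp*, *Ifitm6*, *Lcn2* and *Wfdc21* (0.89, 0.84, 0.52, 0.43 and 0.40 over 2144 cells and 3067 genes). *Ltf* was under 50 CPM in the cultures and so not ranked there, but its r was above that of *Ngp* in both (0.63 and 0.63). *Cd177* was under 50 CPM in every library, with r of 0.29, 0.40 and 0.59. Without the 5 cells richest in *Camp*, r with *Ngp* was 0.56 in both cultures and 0.80 in hSTSG. The cells share a library and differ in depth, so these values describe each library.

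Wider lists of granule genes were measured in the same way. In cluster 21 the median log2 ratio over all 7349 genes was -0.07, with 5.01% of them 2-fold or more higher and 6.4% lower. Of 10 further primary granule and progenitor genes 9 were measured there at the required level, 5 of them 2-fold or more lower in VD-Mac and 1 higher (median -1.14). The lower ones included *Serpinb1a*, an inhibitor of neutrophil serine proteases (547 to 93.6 CPM, -2.55), and *Prss57*, a further granule protease (90.0 to 30.4, -1.56), while *Lyz2*, lysozyme, rose (1238 to 5040, 2.03). Of 12 further specific granule genes 11 were measured, 2 higher and 0 lower (median 0.34), namely *Pglyrp1*, a peptidoglycan-binding protein (382 to 794, 1.06), and *Olfm4*, olfactomedin 4 (1.29). Of 12 gelatinase granule and secretory vesicle genes 8 were measured, 2 higher and 1 lower (median 0.69), with collagenase *Mmp8* at 28.6 and 156 (2.45).

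Of 16 other antimicrobial genes 14 were in the files and 6 were measured in cluster 21, 1 higher and 0 lower (median 0.39). *S100a8*, a calprotectin subunit, was at 50579.9 and 63889.7 (0.34). Of 10 granulocyte transcription factors 0 were higher and 4 lower (median -0.22): *Cebpa*, *Gfi1*, *Myb* and *Klf4*. *Gfi1*, a repressor needed for neutrophil maturation, was at 22.6 and 5.01 CPM (-2.17), whereas *Cebpe*, the factor that drives specific granule genes, was at 206 and 245 (0.25). Of 10 vitamin D genes 4 were measured, 3 higher and 0 lower (median 2.22), with the receptor *Vdr* at 6.02 and 36.6 (2.60). *Cyp24a1* went from 0 UMIs to 2126, a log2 rise of at least 9.53, the lower limit of the exact interval at 0 UMIs.

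In the whole cultures the medians over the same lists were -0.82 for primary (6 measured, 0 higher, 3 lower), -0.03 for specific (8 measured, 0 higher, 3 lower), -0.71 for gelatinase and secretory (8 measured, 1 higher, 3 lower), 0.12 for other antimicrobial (8 measured, 0 higher, 0 lower), -0.23 for transcription factors (8 measured, 1 higher, 2 lower) and 0.69 for vitamin D genes (5 measured, 2 higher, 1 lower), beside -0.10 over all 7732 genes, of which 2.16% were higher and 4.63% lower. The direction was not always that of cluster 21: *Lyz2*, which rose there, was lower in the whole of VD-Mac (6333 to 3070 CPM, -1.04).

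Ranked by size among genes at 50 or more CPM, the rises in cluster 21 after *Cyp24a1* were *Gdf15* (0.301 to 171 CPM, on 1 UMI in Co-Mac; log2 ratio 9.15, 6.66 to 14.45), *Prg2*, *Ckb*, *Dapk2*, *Acpp*, *Pla2g7*, *Smox*, *Ccl3* and *Hbegf*. *Prg2*, the eosinophil major basic protein, rose by 6.34 from 2.41, but was lower in VD-Mac over the whole cultures (24.3 and 18.3 CPM, -0.41). The largest falls were *Mgl2*, a macrophage lectin (50.9 to 2.70, -4.24), *G0s2*, *BC035044*, *Serpinb1a*, *Fkbp11*, *Plac8*, *Gal*, *S100a4*, *P2ry14* and *Rgcc*. None of the 10 granule genes was among these, while over all neutrophil clusters *Ctsg* was the ninth largest fall (311 to 73.0, -2.09). These names describe 1 choice of cluster, and some of the changes were not particular to it. In macrophage and dendritic cell clusters *Gdf15* (7.30) and *Hbegf* (5.71) also rose and *Mgl2* also fell (-3.01). Of the falls, *Fkbp11* (1.25), *Plac8* (1.65), *P2ry14* (0.97) and *Rgcc* (1.68) were instead higher in VD-Mac there.

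The genes' positions set some of them together. Of the 31053 gene identifiers, 30934 (99.62%) were found in the GENCODE vM21 annotation of GRCm38. *Camp* (chr9:109847379-109849617, minus strand), *Ngp* (chr9:110419747-110423012, plus) and *Ltf* (chr9:111019271-111042767, plus) lie on 1 stretch of chromosome 9, 570129 and 596258 bases apart, with 8 and 20 protein-coding genes between. *Prtn3* (chr10:79874476-79883174) and *Elane* (chr10:79886247-79888215), both on the plus strand, are separated by 3072 bases and 0 genes. *Lcn2* is on chromosome 2, *Cd177* on 7, *Mpo* on 11, *Ctsg* on 14 and *Ms4a3* on 19. In the whole cultures *Prtn3* and *Elane* both fell and *Ngp* and *Ltf* both rose, and *Camp* rose with them under the 5% mitochondrial limit but not as reported.

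Promoter sequences (RefSeq, GRCm38.p6, 250 bases upstream of the start, 32851 promoters) were matched for all 10 genes and searched on both strands. RefSeq and GENCODE place some starts differently, so that the sites printed for *Camp* and *Prtn3* lie inside the GENCODE intervals given above. The vitamin D receptor's paired motif, a direct repeat of half-sites with 3 bases between (DR3), was in 13 promoters (0.0396%) and in 0 of the 10. A single half-site (AGGTCA or GGGTCA or AGTTCA or GGTTCA, the same letters that make up DR3) was in 12694 (38.6%) and in *Camp*, *Ltf*, *Mpo* and *Ctsg*. The C/EBP letters TTGCNNAA were in 3142 (9.56%) and in *Ngp*, *Ltf* and *Lcn2*. A match is a description of the letters, and no match says nothing about the receptor. The *Camp* half-site is shown because *Camp* is the gene in question (chr9:109849467-109849512, minus strand, half-site in capitals).
Camp: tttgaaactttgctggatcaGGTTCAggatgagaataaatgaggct

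The PU.1-type letters AGGAAGT were in 2525 promoters (7.69%) and in *Mpo*, *Elane*, *Prtn3* and *Ctsg*, that is in 4 of the 5 early genes and 0 of the 5 late ones. This motif was chosen after the sequences had been seen. Their sites are shown because these are the protease and peroxidase genes that fell together, with the motif in capitals (*Prtn3* chr10:79879553-79879599, *Elane* chr10:79886208-79886254 and *Mpo* chr11:87793541-87793587, plus strand, and *Ctsg* chr14:56102754-56102800, minus strand).
Prtn3: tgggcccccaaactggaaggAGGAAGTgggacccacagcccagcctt
Elane: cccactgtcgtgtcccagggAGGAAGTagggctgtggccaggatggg
Mpo: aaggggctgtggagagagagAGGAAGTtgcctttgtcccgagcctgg
Ctsg: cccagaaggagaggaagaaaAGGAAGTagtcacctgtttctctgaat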

How the data were processed

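The files deposited by the authors hold a count for each gene and cell, not normalized, from 10x 3' v3 libraries run through Cell Ranger. The submitters' notes name mm9 and the study's methods GRCh38, while the gene identifiers fit GRCm38. Barcodes with at least 300 genes, under 100000 UMIs and under 10% mitochondrial UMIs were kept. Hashtag UMIs were left out. Doublets were kept and no caller was run. Levels are CPM of summed UMIs, with exact 95% intervals (Poisson for levels, Clopper-Pearson for shares, conditional binomial for ratios). Ratios of *Camp* to other genes had a normal interval on the log scale, or an exact one at small counts. Genes count as called at 2-fold or more with 10 CPM in the higher group. The ratio script was tested on simulated data with 200 genes changed 4-fold: 199 were recovered in whole cultures with 0 unchanged genes called, and 196 in cluster 21 with 18 called. Intervals covered the true ratio for 95.1% and 95.5% of genes. The simulated counts were drawn as Poisson, which the intervals assume, so this coverage checks the script and says nothing about the spread of real cells. Python 3.11.15, scipy 1.17.1 and igraph 0.11.9 were used.

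The cultures were clustered jointly (log normalization to 10000, 2000 variable genes without the 10, 15 components, 15 neighbours, Louvain), and clusters named from marker lists. The planned resolution of 0.5 gave no precursor cluster. Resolution 2, with each library's genes centred, was picked after others had been inspected with the counts of the 10 genes in view, because it gave similar cell numbers from both cultures. A total of 12 joint, 4 single-culture and 8 graft clusterings are recorded, and others were tried and not kept. A rule on leading genes, which set apart cluster 20 (5 cells of Co-Mac, 307 of VD-Mac), the gates on *Camp* and on *Ngp* or *Ltf*, the omission of the cells richest in *Camp*, the omission of *Lcn2* and cluster 28 were also chosen after values were seen. Clusters 6 (11 and 806 cells), 13 (549 and 0) and 27 (0 and 135) of the mature neutrophils were nearly of 1 culture each. The 10 genes and the lists were chosen with earlier results of these data known. Named genes are the 10, listed genes, the 5 most like *Camp* and the 10 largest rises and falls in cluster 21.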

Additional observations from a re-analysis of the deposited data

Results flagged for a closer look

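The counts of hashtag antibodies, which no comparison here uses, came to 1195935 UMIs over 14 of 20 hashtags in hSTSG, with 579695 on the most abundant hashtag. Both cultures had 0 UMIs on all 10 of theirs. This is a signal outside the main measurement, and with no map from hashtag to mouse the 5 pooled mice were not separated.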

How the results depend on the processing

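Of 382 recomputed values, 168 stayed within the counting interval of the reported one (or within 1.5-fold for counts of genes), 178 moved and 36 changed the sign of a value whose interval had left out 0, all of these in the precursor cells. Values below are log2 ratios, VD-Mac over Co-Mac, unless given as percent or counts, and the cause was not tested where they moved. With 300 UMIs in place of 300 genes, 7261 cells of Co-Mac and 8834 of VD-Mac were kept, against 7257 and 8825. The cells were clustered anew, and precursor cells numbered 273 and 147, against 131 and 145. Precursor values were then 2.66 for *Camp*, 4.28 for *Mpo*, 3.90 for *Elane*, 2.42 for *Prtn3*, 2.87 for *Ctsg* and 0.10 for *Camp* against the others. The precursor share of Co-Mac was 3.76%, and early cells with late RNA (the stage value) were 47.4% in Co-Mac and 59.0% in VD-Mac. With the 5% mitochondrial limit, which kept 3125 and 3619 cells, *Camp* was 1.09 in the whole cultures, -0.32 against the others and -0.44 against them in precursors, the precursor shares 4.54% and 5.53%, and the Co-Mac stage value 47.2%. Median scaling gave *Camp* 0.11 in whole cultures. The mean over cells gave -0.26 there and 0.0414 in precursors. Genes past 2-fold numbered 2835 (whole) and 1914 (precursors) with no floor, and 215 and 284 with a floor of 50 CPM, against 525 and 838. At the planned resolution of 0.5 the VD-Mac stage value was 100.0%, and that resolution, 0.3 and 0.8 gave no precursor cluster and so no other precursor values.

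With 30 components (11 and 540 precursor cells), *Camp* was -4.13, *Ngp* -3.77, *Ltf* -4.45, *Lcn2* -2.72 and *Camp* against the others -0.91, with 1979 genes past 2-fold, shares of 0.152% and 6.12% and a VD-Mac stage value of 58.8%. With each library clustered alone, *Camp* was -0.43 and *Ngp* -0.25, with 1409 genes, shares of 3.17% and 3.25% and stage values of 43.4% and 56.1%. With the 10 genes kept among the variable genes, *Camp* was 0.0247 and -0.81 against the others, with shares of 2.23% and 1.98% and stage values of 44.1% and 57.1%. The following were chosen after seeing the data. At centred resolution 0.5, *Camp* was -2.41, *Ngp* -2.11, *Ltf* -1.77 and *Lcn2* -1.33, with 1297 genes, shares of 2.51% and 9.50% and a VD-Mac stage value of 60.9%. At centred resolution 1.5, *Camp* was -1.42, *Ngp* -1.54, *Ltf* -1.79, *Lcn2* -1.11, *Mpo* 1.88, *Elane* 1.18 and *Camp* against the others -0.11, with shares of 1.06% and 6.08% and a VD-Mac stage value of 54.8%. At centred resolution 3, *Camp* was -1.20, *Ngp* -0.84, *Ltf* -0.55, *Lcn2* -0.0789 and *Camp* against the others -0.82, with shares of 2.45% and 4.68%. At resolution 2 without centring, *Camp* was -2.42, *Ngp* -2.13, *Ltf* -1.64, *Lcn2* -1.08 and *Camp* against the others -0.91, with 1787 genes, shares of 1.14% and 5.62% and a VD-Mac stage value of 58.5%. With cluster 20 added to cluster 21 (136 and 452 cells), *Camp* was -1.08, *Ngp* -0.71, *Ltf* -0.38 and *Camp* against the others -0.81, with 1587 genes and a VD-Mac share of 5.12%. Without the 1 cell richest in *Camp* per culture, *Camp* was -0.12 (whole) and -0.0800 (precursors), and -0.95 and -0.95 against the others. Without 5 such cells these values were -0.40, -0.38, -1.26 and -1.34. In place of cluster 21, the *Ngp* or *Ltf* gate gave *Camp* -0.49, all neutrophil clusters 0.0515 and cluster 28 -1.10. Stage values in Co-Mac and VD-Mac were 35.1% and 48.4% when cells were thinned to 1000 UMIs. With more UMIs kept per cell than in the main setting, the Co-Mac value was 79.8%. Stage values in Co-Mac and VD-Mac were 82.8% and 93.4% with 1 or more UMIs of a group. They were 42.1% and 62.1% with 5 or more, and 38.2% and 23.1% without *Lcn2*.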
